A study of Homo sapiens with 4 samples.

Results

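The mesenchymal and forkhead transcription factors described here are 10 genes of 57820 in the files: TWIST1, TWIST2, SNAI1, SNAI2, ZEB1, ZEB2, PRRX1, FOXC2, FOXF1 and FOXF2. They were taken by symbol from a list of names, after the version number of each Ensembl identifier was removed. All 10 were found, among them FOXC2 (ENSG00000176692.4), FOXF1 (ENSG00000103241.5), FOXF2 (ENSG00000137273.3) and TWIST2 (ENSG00000233608.2), and all 10 passed the filter on low counts, which left 17024 genes for testing. The cells were Daoy, an established human medulloblastoma line. Of the 4 libraries of poly(A)-selected RNA, 3 carry the label wild type and 1 the label ARID1B shRNA (the shRNA-labelled library). This library came from polyclonal cells carrying a hairpin against ARID1B, a subunit of the BAF chromatin remodelling complexes, in the lentiviral vector tet-pLKO-puro, which doxycycline switches on. All libraries carry the same treatment label, doxycycline at 1 µg/ml for 72 h. The series names cells with the empty vector and parental cells as controls, without saying which wild-type library is which, so the 3 were treated as 1 group.

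These factors direct the change of cells from an attached, epithelial form to a loose, migratory mesenchymal one, a step of gastrulation and neural crest formation that tumour cells can reuse. SNAI and ZEB proteins are zinc-finger repressors that bind E-box sequences, with CACCTG as the usual core, and shut down E-cadherin and other junction genes. TWIST proteins are basic helix-loop-helix factors that pair with E-proteins, PRRX1 is a homeobox factor of limb and head mesenchyme, and FOXC2, FOXF1 and FOXF2 are forkhead factors of vessels, gut wall and lung mesenchyme.

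Reads assigned to genes numbered 12619786, 13228587 and 15390106 in wild-type libraries 1 to 3 and 8792848 in the shRNA-labelled library. Levels are CPM, gene counts relative to the library total, after TMM scaling, which makes the totals comparable, and a wild-type mean is given ± SD (n = 3). The shRNA arm is 1 library without replicate, so the spread in each test is that of the wild-type libraries. Nothing says that each of these came from its own culture, so p-values measure only the spread between libraries. Cells with the empty vector and parental cells may both be among them. That spread may then hold a difference between the kinds of control, which was not tested. ARID1B itself was at 164, 88.0 and 72.9 CPM in wild type and at 175 CPM in the shRNA-labelled library (edgeR adjusted p = 0.399), so the mRNA was not lower there as measured, and every direction below belongs to the library labelled ARID1B shRNA, whatever the state of ARID1B in its cells. ATOH1, which marks cerebellar granule neuron progenitors, had 0 counts in all 4 libraries, while 17 of 23 medulloblastoma and granule neuron markers were high enough to test; of these 1 rose, ZIC2, from 9.22 ± 1.25 to 24.8 CPM (edgeR adjusted p = 0.043; 0.189 after correction for GC and length, described below; 0.0629 and 0.0923 without wild-type library 2 and 3). Markers of blood, vessel, glial and mature neuron cells summed to 14.3 to 26.5 CPM in wild type, with 18.0 CPM in the shRNA-labelled library, with 12 of 17 under 1 CPM in each library, among them the blood markers PTPRC and HBB and the endothelial marker CDH5, and 0 of the 6 tested passed in edgeR, nor did any at an unadjusted p below 0.05 or in DESeq2 or limma-voom.

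The 10 factors did not move together. The forkhead genes FOXC2, FOXF1 and FOXF2 and the bHLH gene TWIST2 rose in the shRNA-labelled library, by 12.4-fold, 8.11-fold, 3.17-fold and 7.69-fold. TWIST1, SNAI1, SNAI2, ZEB1, ZEB2 and PRRX1 did not pass the test, and none of the 10 fell. A gene passed at an edgeR quasi-likelihood p below 0.05 after Benjamini-Hochberg adjustment over all tested genes. The 4 that rose of 10 stand beside 3.65% of all tested genes that rose, the 0 that fell beside 0.834%, and 4.48% passed in either direction. The same share of 3.65% stands beside the 1 of 17 markers above. Members and lists were chosen with earlier results of these data known, so these shares are a description and no test of enrichment. The shRNA-labelled library lay above all 3 wild-type libraries for 7 of the 10 and below all of them for 2, and ZEB2 lay within their range. Of all tested genes 35.4% lay above, 37.9% below and 73.3% on either side, so a place outside the wild-type range is common here. The median log2 fold change was 0.49 over the 10 and -0.05 over all tested genes.

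**Figure D1:**
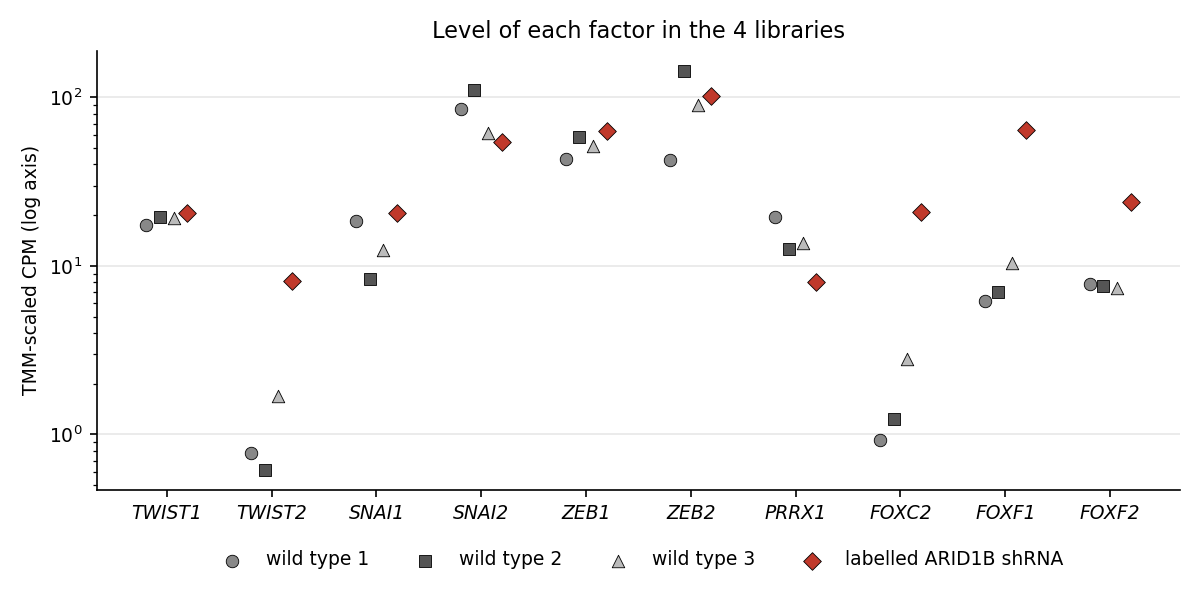
TMM-scaled CPM on a log axis for the 10 factors in the 4 libraries (grey symbols, wild-type libraries 1 to 3; red diamonds, the shRNA-labelled library). TWIST2, FOXC2, FOXF1 and FOXF2 stand well above their wild-type values, and PRRX1 stands below, at 7.98 against 12.6 to 19.4 CPM.

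GC content has to be read beside these values. Among all tested genes the median log2 fold change went from -0.30 in the decile of lowest GC content to 1.32 in the decile of highest, which begins at 61.1% GC, and 18.2% of the genes in that top decile rose. FOXC2 (63.2% GC) and FOXF2 (63.6%) lie in it. TWIST1 (57.2%) and TWIST2 (57.0%) lie in the decile with a median of 0.18, SNAI1 (58.2%) in that with 0.52, and FOXF1 (51.2%) in that with 0.03. SNAI2 (41.4%), PRRX1 (41.0%), ZEB2 (39.1%) and ZEB1 (38.5%) lie in the 3 lowest deciles, with medians of -0.24 to -0.30. These are values of the longest transcript. Over the coding sequence alone GC content was 68.4% for FOXF1, 70.6% for FOXF2, 70.7% for FOXC2, 71.6% for TWIST1 and 66.5% for TWIST2. A trend on coding GC content was not tested. When each library's trend on GC and on transcript length was taken out, FOXC2 and FOXF1 passed and TWIST2 and FOXF2 did not. These 2 of 10 that rose stand beside 2.01% of tested genes, and the 0 that fell beside 0.858%, or 2.87% in either direction.

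**Figure D2:**
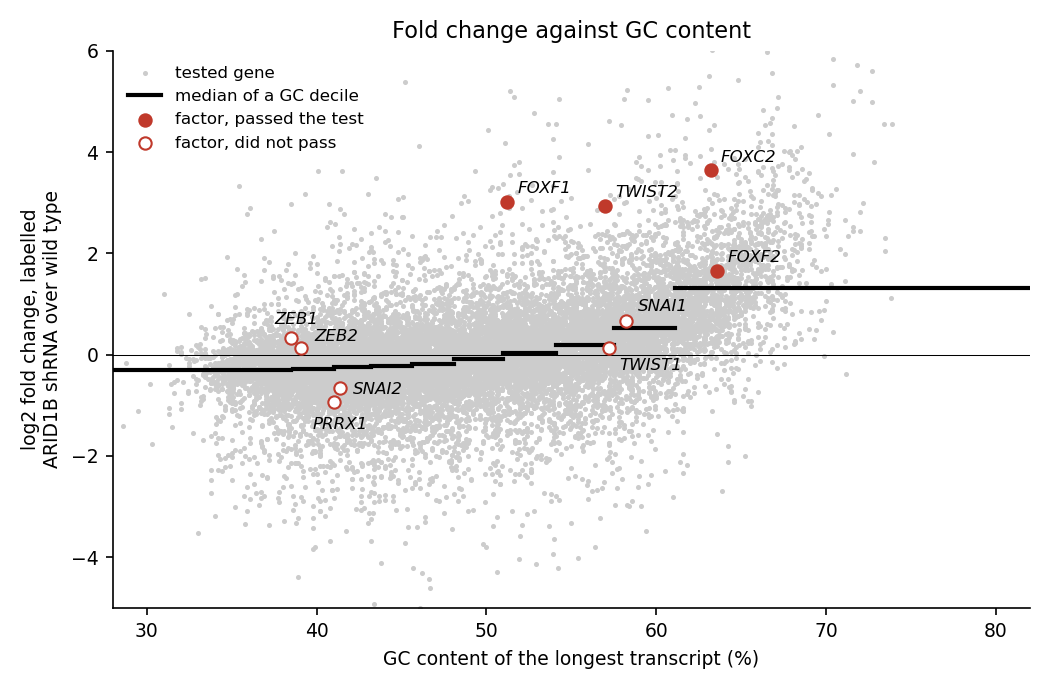
Log2 fold change (shRNA-labelled library over wild type) against GC content of the longest transcript, for tested genes (grey; 114 outside the axes are not drawn), with the median of each GC decile (black bars) and the 10 factors (red). FOXF1, TWIST2 and FOXC2 stand far above the bar of their decile, at log2 fold changes of 3.02, 2.94 and 3.64, and FOXF2, at 1.66, stands close to its bar at 1.32.

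The forkhead and TWIST factors belong to families whose DNA-binding parts are nearly identical in sequence, and the reads were 100 bases long. The 2 pairs below are shown because they bear on which gene a read can be assigned to. Each is the 100-base window of the coding sequence, from GENCODE 29 transcripts, in which the paralogues are most alike without gaps, with capitals at the bases that differ.
TWIST1, coding bases 335 to 434: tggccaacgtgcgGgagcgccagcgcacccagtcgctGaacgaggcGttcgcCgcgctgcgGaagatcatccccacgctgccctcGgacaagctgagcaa
TWIST2, coding bases 209 to 308: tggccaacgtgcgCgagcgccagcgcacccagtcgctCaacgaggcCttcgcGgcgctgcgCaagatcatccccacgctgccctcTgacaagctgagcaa
FOXF1, coding bases 298 to 397: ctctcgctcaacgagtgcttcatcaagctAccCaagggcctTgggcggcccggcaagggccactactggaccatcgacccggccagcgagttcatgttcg
FOXF2, coding bases 454 to 553: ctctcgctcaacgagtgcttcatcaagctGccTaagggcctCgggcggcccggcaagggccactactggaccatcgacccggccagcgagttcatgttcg

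The TWIST windows differed at 6 of 100 bases and the FOXF windows at 3. In the same comparison FOXC1 and FOXC2, not shown, were the most alike, with 1 base that differed. Between SNAI1 and SNAI2 there were 23 such bases, and between ZEB1 and ZEB2 there were 17. Over the whole coding sequences the longest run without a difference was 23 bases for TWIST and 68 bases for FOXF. The latter is more than the window shown holds and shorter than a read. For FOXC1 and FOXC2 the longest run was also 68 bases. The files set reads with more than 1 alignment apart from the gene counts. How a read with a sequencing error in these windows was assigned is not given in the sources used here, so some counts of each pair are uncertain, as they are for FOXC2 and its close paralogue FOXC1. How many was not measured.

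FOXF1, a mediator of hedgehog signals in gut and lung mesenchyme, rose with the smallest error relative to its change. It was at 6.21, 6.96 and 10.4 CPM in wild type, 7.86 ± 2.24 CPM, and at 64.0 CPM in the shRNA-labelled library (561 counts; exact 95% Poisson interval 58.8 to 69.5 CPM, counting error only). The wild-type libraries lie together, and the shRNA-labelled library is more than 6 times the highest of them. Its log2 fold change was 3.02 (standard error, SE, 0.31; edgeR adjusted p = 0.0183). After removal of the GC and length trend it was 2.98 (SE 0.27; edgeR adjusted p = 0.0185). Of 1662 genes in its GC decile, FOXF1 ranked 18th by log2 fold change. Without wild-type library 2 the edgeR adjusted p was 0.05 after rounding, just too high to pass, at a log2 fold change of 2.95.

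FOXC2, a factor of lymphatic vessels and paraxial mesoderm, had the largest fold change of the 10 and started from a very low level. Its counts were 12, 16 and 43 in wild type and 184 in the shRNA-labelled library. These are 0.931, 1.24 and 2.80 CPM against 21.0 CPM (exact 95% Poisson interval 18.1 to 24.2 CPM). Wild-type library 3 is the highest of its group, and the shRNA-labelled library is far above it. The log2 fold change was 3.64 (SE 0.54; edgeR adjusted p = 0.0335). Removing the trend gave 2.45 (SE 0.41; edgeR adjusted p = 0.0467), a fold of 5.45 in place of 12.4. FOXC2 exceeded the median of its GC decile by 2.32 on the log2 scale, and 4.69% of the genes there had a larger log2 fold change. Without wild-type library 2 the edgeR adjusted p was 0.0768, and without library 3 the log2 fold change was 4.26.

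FOXF2, which acts beside FOXF1 in gut wall mesenchyme and in brain pericytes, had the tightest wild-type values of the 10. It measured 7.84, 7.58 and 7.36 CPM in wild type, 7.59 ± 0.242 CPM, and 24.1 CPM in the shRNA-labelled library. The groups do not overlap, and the log2 fold change was 1.66 (SE 0.23; edgeR adjusted p = 0.0293). FOXF2 was only 0.35 above the median of its GC decile, where 36.8% of the genes had a larger log2 fold change. With the trend removed its log2 fold change was 0.31 (SE 0.32; edgeR adjusted p = 0.605), and it did not pass. It also missed the threshold when wild-type library 2 (edgeR adjusted p = 0.0574) or 3 (0.061) was left out.

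TWIST2, the bHLH factor of dermis and early bone, was near the limit of detection in wild type. Its counts were 10, 8 and 26 there and 71 in the shRNA-labelled library, or 0.776, 0.618 and 1.69 CPM against 8.10 CPM (exact 95% Poisson interval 6.32 to 10.2 CPM). Wild-type library 3 is again the highest of its group, and the interval lies above all 3. The log2 fold change was 2.94 (SE 0.54; edgeR adjusted p = 0.0448). With the trend removed it was 2.69 (SE 0.47; edgeR adjusted p = 0.0504), and leaving out wild-type library 2 gave 2.70 (0.0784), so that it no longer passed. TWIST2 ranked 13th of 1662 genes in its GC decile.

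TWIST1, which shapes skull and limb mesenchyme and is the more abundant TWIST gene, was even across the libraries. It measured 17.4, 19.6 and 19.3 CPM in wild type, with 20.6 CPM in the shRNA-labelled library. The log2 fold change was 0.14 (SE 0.23; edgeR adjusted p = 0.735), and it was -0.19 with the trend removed (0.644). Over the longest transcript, TWIST1 and TWIST2 have nearly the same GC content and similar lengths (1666 and 1404 bases). Over the coding sequence their GC content is 71.6% and 66.5%. Their ratio within a library does not depend on library scaling.

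Per base of transcript, TWIST2 was at 0.0530, 0.0374 and 0.104 of TWIST1 in wild-type libraries 1 to 3 and at 0.465 of it in the shRNA-labelled library. FOXF1 was at 0.552, 0.640 and 0.987 of FOXF2 in wild type and at 1.85 of it in the shRNA-labelled library. FOXC2 was at 0.0551, 0.0930 and 0.174 of its paralogue FOXC1 and at 1.13 of it in the shRNA-labelled library. In all 3 pairs the value of the shRNA-labelled library lies above every wild-type value. ZEB2 against ZEB1 gave 0.647, 1.61 and 1.14 in wild type and 1.05 in the shRNA-labelled library, within the wild-type range. SNAI2 against SNAI1 gave 2.75, 7.85 and 2.98, and 1.56 in the shRNA-labelled library, below that range. GC content of the longest transcript differs within 3 of the pairs. It is 51.2% against 63.6% for FOXF1 and FOXF2, 63.2% against 56.3% for FOXC2 and FOXC1, and 41.4% against 58.2% for SNAI2 and SNAI1. From the fitted fold changes, the fold of FOXC2 relative to FOXC1 was 10.3-fold as measured and 5.62-fold with the trend removed, and that of FOXF1 relative to FOXF2 2.56-fold and 6.37-fold. The fold of SNAI2 relative to SNAI1 was 0.400 and 0.651. That of TWIST2 relative to TWIST1, which are alike in GC content of the longest transcript only, was 6.99 and 7.35. A permutation over 4 libraries, 1 against 3, cannot give a one-sided p below 0.25, so the ratios are described and not tested.

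**Figure D3:**
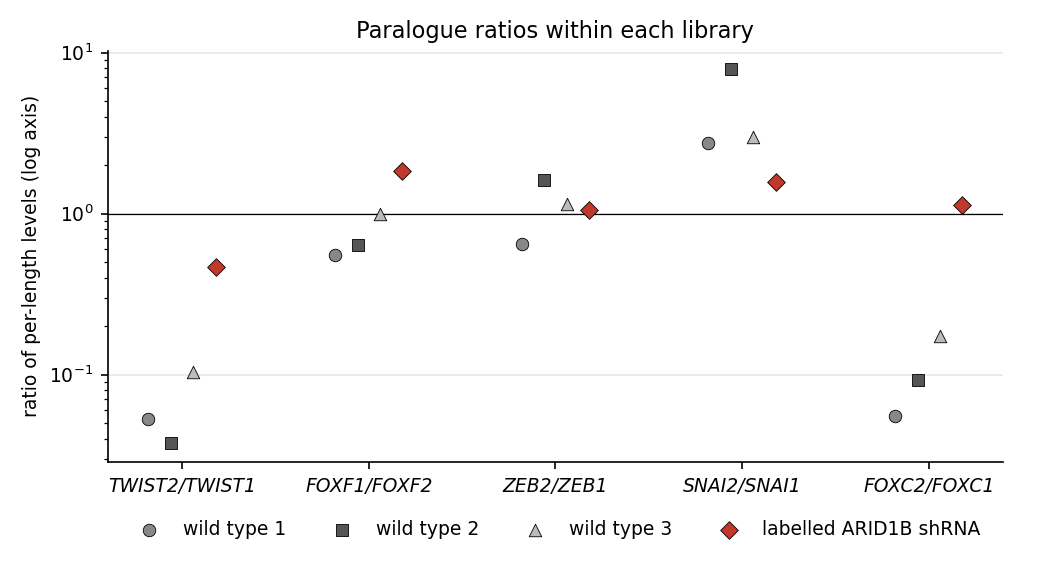
Ratio of the per-length levels of 2 paralogues within each library, on a log axis with a line at 1 (grey symbols, wild-type libraries 1 to 3; red diamonds, the shRNA-labelled library). The red diamond is the highest of its column for TWIST2/TWIST1, FOXF1/FOXF2 and FOXC2/FOXC1, inside the wild-type values for ZEB2/ZEB1 and the lowest for SNAI2/SNAI1.

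The SNAI genes, zinc-finger repressors of E-cadherin, did not pass the test, and their measured differences had opposite signs. SNAI1, which acts early in the transition, was at 18.5, 8.35 and 12.4 CPM in wild type and at 20.6 CPM in the shRNA-labelled library. That value is just above wild-type library 1, and the log2 fold change was 0.66 (SE 0.44; edgeR adjusted p = 0.395), or 0.23 with the trend removed (0.773). SNAI2, a neural crest factor, was at 85.3, 110 and 61.8 CPM in wild type and at 54.2 CPM in the shRNA-labelled library. That value is just under wild-type library 3, and the log2 fold change was -0.66 (SE 0.35; edgeR adjusted p = 0.294), or -0.39 with the trend removed (0.451).

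The ZEB genes, whose long proteins carry 2 zinc-finger clusters around a homeodomain, did not pass either. ZEB1 was at 43.1, 58.5 and 51.8 CPM in wild type and at 63.6 CPM in the shRNA-labelled library, above each of them by a small margin. Its log2 fold change was 0.32 (SE 0.23; edgeR adjusted p = 0.425) and 0.56 with the trend removed (0.164). ZEB2, the gene of Mowat-Wilson syndrome, differed 3.39-fold within wild type, the widest spread of the 10, with 42.6, 144 and 90.5 CPM. The shRNA-labelled library, at 102 CPM, lay between wild-type libraries 2 and 3 (log2 fold change 0.14, SE 0.63; edgeR adjusted p = 0.909). Without wild-type library 1 the sign turned, to -0.20 (edgeR adjusted p = 0.755). Genes for the microRNA hosts MIR200CHG and MIR205HG, whose microRNAs repress ZEB mRNAs in epithelia, had 0 counts in each library, which says nothing of the mature microRNAs in poly(A)-selected RNA.

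PRRX1 had the most negative difference of the 10. It was at 19.4, 12.6 and 13.7 CPM in wild type and at 7.98 CPM in the shRNA-labelled library (70 counts; exact 95% Poisson interval 6.22 to 10.1 CPM). The interval lies below all 3 wild-type values, and the log2 fold change was -0.93 (SE 0.36). It did not pass (edgeR adjusted p = 0.181; unadjusted p = 0.0421), and with the trend removed it was -0.73 (edgeR adjusted p = 0.256). Its paralogue PRRX2, from 4, 9 and 13 counts in wild type and 67 in the shRNA-labelled library, rose, with a log2 fold change of 3.59 (edgeR adjusted p = 0.0289). PRRX2 has 69.0% GC content, and with the trend removed its log2 fold change was 1.35 (edgeR adjusted p = 0.190).

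**Figure D4:**
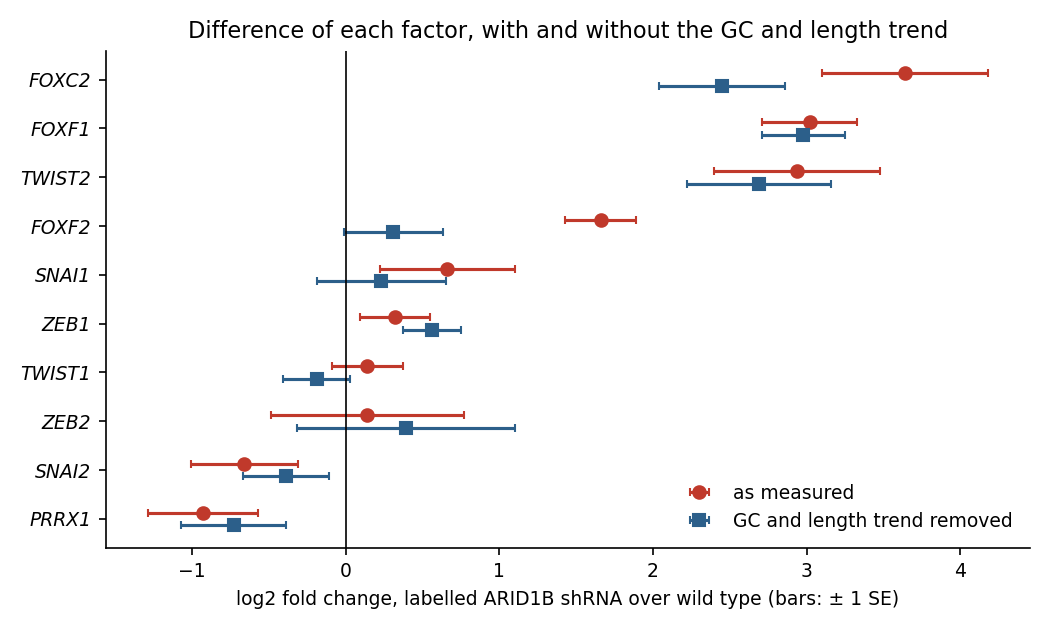
Log2 fold change of each factor, shRNA-labelled library over wild type, with bars of ± 1 SE, as measured (red circles) and after trend removal (blue squares). FOXF1 and TWIST2 moved little between the settings, FOXC2 went from 3.64 to 2.45, FOXF2 from 1.66 to 0.31, and TWIST1 from 0.14 to -0.19.

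Every call among the 10 was lost when wild-type library 2 was left out. The log2 fold changes of FOXF1, FOXC2, FOXF2 and TWIST2 were 3.02, 3.64, 1.66 and 2.94 with all libraries. They were 2.95, 3.47, 1.67 and 2.70 without library 2. Without it 0 of the 10 passed in edgeR (5 at an unadjusted p below 0.05), beside 0.836% of tested genes that passed as higher, against 4 of 10 and 5.43% without library 1 and 3 of 10 and 2.68% without library 3. At an unadjusted p below 0.05, 5 of the 10 passed with all libraries, the 4 that rose and PRRX1. DESeq2 and limma-voom each called the same 4 genes.

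Levels between genes are compared as CPM per kb of the longest transcript. In wild type SNAI2 was highest at 30.3 ± 8.51, followed by TWIST1 at 11.3 ± 0.724, ZEB2 at 9.65 ± 5.31, ZEB1 at 8.16 ± 1.24 and SNAI1 at 7.75 ± 3.02. PRRX1 at 3.56 ± 0.851, FOXF2 at 3.10 ± 0.0989, FOXF1 at 2.24 ± 0.638, TWIST2 at 0.733 ± 0.413 and FOXC2 at 0.571 ± 0.345 came after them. The wild-type values of neighbours in this order overlap except between SNAI2 and TWIST1, SNAI1 and PRRX1, FOXF2 and FOXF1, and FOXF1 and TWIST2. In the shRNA-labelled library SNAI2 was at 19.2 CPM per kb and FOXF1, 8th in wild type, was next at 18.2. TWIST1 at 12.4, SNAI1 at 12.2, ZEB2 at 10.7, ZEB1 at 10.2 and FOXF2 at 9.82 followed, then FOXC2 at 7.24 and TWIST2 at 5.77, and PRRX1 was last at 1.86.

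FOXF1 and FOXC2 sit close to each other in a cluster of forkhead genes on the same chromosome, so their neighbours, MTHFSD between them included, were read as well. FENDRR, a long non-coding RNA gene next to FOXF1, was at 9.24, 4.48 and 7.55 CPM in wild type and at 22.5 CPM in the shRNA-labelled library. Its log2 fold change was 1.66 (SE 0.40; edgeR adjusted p = 0.0774) and 1.85 with the trend removed (0.0707), and it passed without wild-type library 1 (0.0256). FOXL1, the gene after FOXC2, was at 5.12, 6.26 and 6.38 CPM against 11.5 CPM (log2 fold change 0.96; edgeR adjusted p = 0.125). MTHFSD was at 11.1, 7.50 and 10.9 CPM against 10.9 CPM (log2 fold change 0.16; edgeR adjusted p = 0.798).

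FOXF2 lies in another such cluster, with FOXQ1 before it and FOXC1 after it. FOXQ1 was at 3.49, 5.33 and 5.27 CPM in wild type and at 12.8 CPM in the shRNA-labelled library (log2 fold change 1.44; edgeR adjusted p = 0.0774), and its log2 fold change was 0.33 with the trend removed. FOXC1 was at 22.9, 18.0 and 21.7 CPM against 25.1 CPM (log2 fold change 0.26; edgeR adjusted p = 0.527). In both clusters the genes thus had unequal log2 fold changes as measured. With the trend removed, those of the FOXF2 cluster were 0.31 for FOXF2 (SE 0.32), 0.33 for FOXQ1 (SE 0.39) and -0.05 for FOXC1 (SE 0.18). The forkhead genes of the other cluster were then at 2.98 for FOXF1, 2.45 for FOXC2 and 0.77 for FOXL1.

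Genes annotated over the members hold few counts. ZEB1-AS1 had 38, 39 and 47 counts in wild type and 33 in the shRNA-labelled library, and FOXC2-AS1, opposite FOXC2, had 2 to 4 counts in each. ZEB2-AS1 had 0 counts, and an antisense gene at TWIST1 had 4 to 6 counts in wild type and 0 in the shRNA-labelled library. The TruSeq RNA kit named in the labels does not mark strand, so reads of a gene and its antisense partner cannot be told apart. FOXF2-DT, upstream of FOXF2, had 2 to 7 counts, the SNAI1 pseudogene SNAI1P1 had 0, the ZEB2 pseudogene ZEB2P1 10 to 16, and LINC01082 had 0. Of these RNA genes 3 were high enough to test, FENDRR, ZEB1-AS1 and ZEB2P1, and 0 passed in edgeR, with 1, FENDRR, at an unadjusted p below 0.05.

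Upstream sequence is shown for TWIST2 and FOXF2, the genes among the 4 that rose for which the RefSeq table used here (GRCh38.p14) has a start site; 5 of the 10 have an entry. Each is the 250 bases before the start, with capitals at matches to CANNTG, the general E-box, and to GGGCGG or CCGCCC, the GC box. These coordinates are of another build than the authors' files.
TWIST2, chr2:238847835-238848084, plus strand: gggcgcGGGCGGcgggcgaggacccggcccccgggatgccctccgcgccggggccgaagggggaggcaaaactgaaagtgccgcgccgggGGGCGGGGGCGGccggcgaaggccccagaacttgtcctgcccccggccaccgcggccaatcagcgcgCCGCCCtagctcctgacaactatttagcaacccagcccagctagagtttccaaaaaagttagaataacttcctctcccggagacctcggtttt
FOXF2, chr6:1389326-1389575, plus strand: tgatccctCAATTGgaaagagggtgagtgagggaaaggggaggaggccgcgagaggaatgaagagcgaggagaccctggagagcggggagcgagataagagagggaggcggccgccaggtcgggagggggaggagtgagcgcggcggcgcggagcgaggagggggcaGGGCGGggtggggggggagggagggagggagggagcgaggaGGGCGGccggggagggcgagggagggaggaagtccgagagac

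The TWIST2 window holds 4 GC boxes and the FOXF2 window 2, a motif found in 42.6% of 35116 such windows of all genes. CANNTG matched at 0 places for TWIST2 and 1 for FOXF2, against 61.8% of all windows with at least 1 match. Neither window has CACCTG or CAGGTG, the core that SNAI and ZEB proteins bind (17.5% of windows; these are also counted under CANNTG), or the forkhead core GTAAACA or TGTTTAC (2.98%). Both strands were searched. The GC content was 68.4% and 70.8%, with a median of 58.0% over all windows. Upstream of members that did not pass, it was 50.8% for PRRX1 and 48.0% for ZEB2. ZEB1, which did not pass either, has several start sites, with windows of 42.4% to 73.6%.

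Among other Snail, PRRX, forkhead and Twist-like genes 2 of 24 tested rose and 0 fell, beside 3.65% and 0.834% of all tested genes. PRRX2, described above, was among those that rose. With the trend removed 1 rose, beside 2.01% of all tested genes, and PRRX2 did not pass. FOXK1 went from 81.5 ± 10.5 to 147 CPM without passing (edgeR adjusted p = 0.0674). Over the list, log2 fold changes had a median of 0.77, and 0.38 with the trend removed. With wild-type library 2 left out PRRX2 did not pass (edgeR adjusted p = 0.0607), nor with library 3 left out (0.0583).

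Of 7 genes for E-proteins, the dimerisation partners of TWIST proteins, and for the ID inhibitors of E-proteins, 2 rose. The share over all tested genes was 3.65%. TCF3, the E-protein gene whose products pair with TWIST factors, rose from 56.5 ± 14.8 to 176 CPM (edgeR adjusted p = 0.0438), and ID1, which sequesters E-proteins, rose from 28.3 ± 3.31 to 97.0 CPM (0.0206). TCF4, another E-protein gene, went from 61.4 ± 8.15 to 32.2 CPM and ID3 from 65.2 ± 26.9 to 161 CPM, without passing (edgeR adjusted p = 0.0822 and 0.173). Once the trend was removed ID1 passed (edgeR adjusted p = 0.0318) but TCF3 did not (0.0656). ID1 also passed without each wild-type library, and TCF3 did not without library 2 (0.0553) or 3 (0.0502).

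Of 24 tested corepressors of SNAI and ZEB proteins and enzymes of their turnover, 4 rose and 0 fell. Over all tested genes 3.65% rose and 0.834% fell. AJUBA, a LIM protein that links SNAI1 to corepressors, rose from 42.6 ± 4.72 to 119 CPM, and its relative WTIP from 1.13 ± 0.153 to 4.79 CPM. CTBP1, the corepressor of ZEB factors, rose from 46.9 ± 9.96 to 133 CPM, and the kinase gene CSNK1E from 60.7 ± 12.3 to 168 CPM. In this order, adjusted p in edgeR was 0.025, 0.0455, 0.0382 and 0.035. With the trend removed AJUBA and CSNK1E passed (edgeR adjusted p = 0.033 and 0.0456), and WTIP and CTBP1 did not (0.0625 and 0.0649). AJUBA alone of these passed without wild-type library 2 (edgeR adjusted p = 0.049; 0.0724 for CSNK1E, 0.0893 for WTIP, 0.0559 for CTBP1) and CSNK1E alone without library 3 (0.0411; 0.0585 for AJUBA, 0.0956 for WTIP, 0.0537 for CTBP1).

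Epithelial genes that SNAI and ZEB proteins repress were few and low in every library. Of 39 listed, 12 were too low to test, none of them above 0.699 CPM in any library. CDH1, the E-cadherin gene, had 2, 1 and 6 counts in wild type and 0 in the shRNA-labelled library, where a floor of 3 counts is 0.342 CPM. Of the 27 tested, 1 rose and 1 fell, beside 3.65% and 0.834% of all tested genes. The share that rose was thus close to that of all genes. Desmoplakin DSP fell from 363 ± 32.0 to 154 CPM (edgeR adjusted p = 0.0326), and OVOL1, which encodes a repressor of ZEB1, rose from 1, 0 and 1 counts to 19 counts (0.0354). OVOL1 passed the filter on low counts only through the shRNA-labelled library, so it had to differ, and its call is no support for a rise among epithelial genes. Plakoglobin JUP went from 65.5 ± 19.1 to 213 CPM and occludin OCLN from 11.3 ± 1.09 to 23.8 CPM without passing (edgeR adjusted p = 0.0527 and 0.0666). After trend removal DSP and OCLN passed (edgeR adjusted p = 0.0327 and 0.0493), and so did OVOL1 (0.0491), with the same limit. JUP has 61.5% GC content, and its log2 fold change of 1.70 became 0.70 with the trend removed, where it did not pass. JUP did not pass without wild-type library 2 or 3 either. Over the tested epithelial genes, log2 fold changes had a median of 0.24, and 0.00 with the trend removed. DSP and OVOL1 missed the threshold with wild-type library 2 left out (edgeR adjusted p = 0.0677 and 0.0649) and with library 3 left out (0.0502 and 0.0912), and JUP passed without library 1 (0.00758).

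Mesenchymal genes ranged widely in level, from CNN1 at a wild-type mean of 0.686 CPM to FN1 at 23297 CPM, extremes named after their values were seen. Of 32 tested, 4 fell and 0 rose, with a median log2 fold change of -0.51, and -0.70 with the trend removed. Over all tested genes 0.834% fell and 3.65% rose. Vimentin, VIM, the mesenchymal intermediate filament, fell from 2513 ± 125 to 937 CPM (edgeR adjusted p = 0.0213). S100A4, a calcium-binding protein of migratory cells, fell from 156 ± 25.3 to 29.4 CPM, the fibroblast activation protein gene FAP from 16.7 ± 1.34 to 2.17 CPM, and the collagen gene COL5A2 from 298 ± 66.4 to 94.8 CPM (edgeR adjusted p = 0.0199, 0.0209 and 0.0444). N-cadherin, CDH2, was at 169 ± 29.6 and 231 CPM and did not pass (edgeR adjusted p = 0.268). With the trend removed VIM, S100A4 and FAP passed and COL5A2 did not (edgeR adjusted p = 0.0512). In bulk RNA, fewer cells of a type and less RNA per cell cannot be told apart. Without wild-type library 2 VIM and COL5A2 did not pass (edgeR adjusted p = 0.0567 and 0.05), and without library 3 COL5A2 did not (0.0988).

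Of 27 tested ligands, receptors, effectors and inhibitors in pathways that induce these factors, 2 rose and 2 fell. SMAD7, SKIL and PTCH1 are among the inhibitors counted. Over all tested genes 3.65% rose and 0.834% fell. The TGF-beta ligand gene TGFB3 fell from 18.4 ± 1.74 to 2.17 CPM and the ligand gene BMP4 from 13.1 ± 1.32 to 3.88 CPM (edgeR adjusted p = 0.0199 and 0.0435). RELA, a subunit of NF-kappaB, rose from 60.9 ± 6.90 to 139 CPM and the receptor gene NOTCH1 from 5.66 ± 3.13 to 54.7 CPM (edgeR adjusted p = 0.034 and 0.0368). With the trend removed TGFB3 and BMP4 passed (edgeR adjusted p = 0.0185 and 0.0391), and RELA and NOTCH1 did not (0.0623 and 0.0602). TGFB3 alone of these passed without wild-type library 2 (edgeR adjusted p = 0.049; 0.0736 for BMP4, 0.0678 for RELA, 0.0991 for NOTCH1). Without library 3 BMP4 and RELA did not pass (0.0832 and 0.0556), and NOTCH1 stood at a log2 fold change of 3.81.

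**Figure D5:**
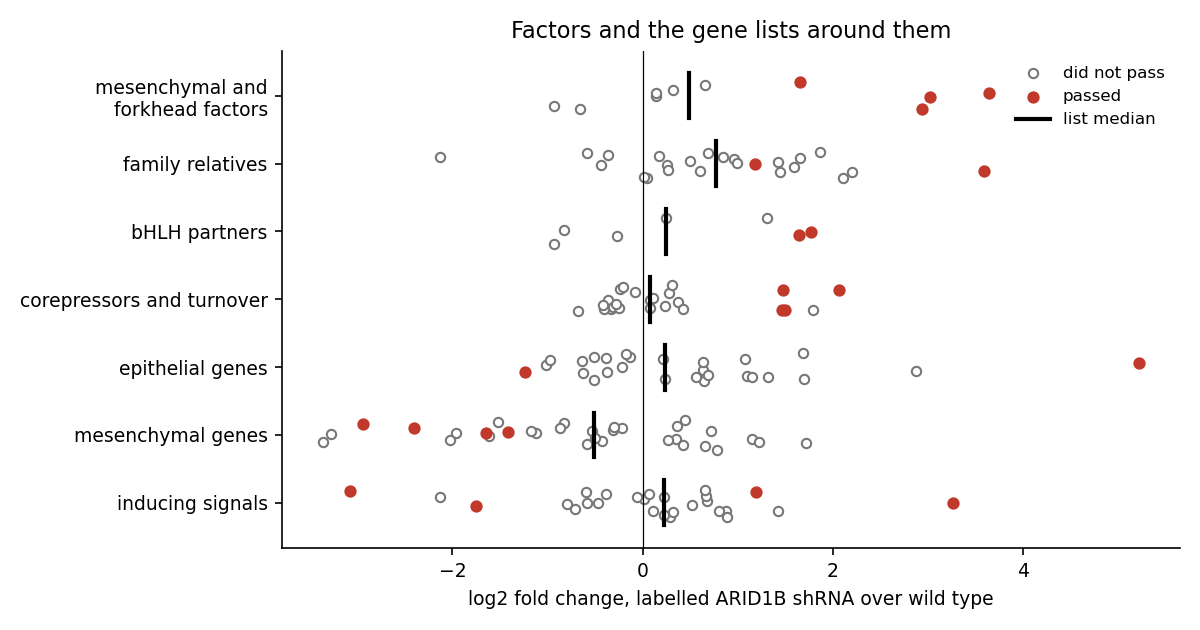
Log2 fold change (shRNA-labelled library over wild type) of each tested gene in the 10 factors and 6 lists around them, with genes that passed in red, others open and the list median as a black bar. The points that passed lie to the right among the factors, their relatives, the bHLH partners (E-protein and ID genes) and the corepressors. They lie to the left among the mesenchymal genes, with S100A4 at -2.40 and VIM at -1.42.

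Profiles like those of the members with the highest CPM, ZEB2 and SNAI2, were looked for among 10000 protein-coding genes, by the distance between log2 CPM values centred over the 4 libraries. The closest to ZEB2 were EFNA1, NFKBIZ and DRAM1, at distances of 0.06, 0.12 and 0.12; EFNA1 was at 25.3, 89.5 and 55.0 CPM in wild type and at 64.0 CPM in the shRNA-labelled library, lowest in wild-type library 1 as ZEB2 was. The closest to SNAI2 were SLC18B1, CCNE2 and ERMAP, at 0.13, 0.14 and 0.16, highest in wild-type library 2 as SNAI2 was. With 4 libraries such likeness is a description only.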

How the data were processed

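Gene expression was measured by RNA sequencing (single reads of 100 bases, per the labels' protocols) in 3 libraries labelled wild type and 1 labelled ARID1B shRNA. Each library's deposited file holds raw read counts by gene. The submitters' processing notes name HISAT2, HTSeq, bcl2fastq and DESeq2 and the build GRCh37 (hg19); for tool versions, strand setting and annotation, what was used is not given in the sources used here. The 5 closing lines of each file name no gene (19.6% to 22.2% of all reads) and were left out.

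Symbols matched 89.9% of identifiers; GC content and length are those of the longest transcript in GENCODE 29 (GRCh38), known for 97.6% of tested genes. Counts were filtered by filterByExpr (minimum count 10, minimum total 15), scaled by TMM and tested with edgeR 4.0.16 in R 4.3.3 (glmQLFit, robust, and glmQLFTest), with Benjamini-Hochberg adjustment over all genes and a threshold of 0.05. All 2 residual degrees of freedom come from wild type. The SE is the absolute log2 fold change over the square root of F. Trends were estimated per library by loess (span 0.3) on GC content, then on length, using genes whose mean count reached 20, and taken out as offsets. Other settings tried were DESeq2 1.42.0, limma-voom (limma 3.58.1), scaling by RLE or upper quartile, a non-robust fit, every gene with a count, genes with a mean count from 50 up, the GC trend alone, and leaving out each wild-type library. The procedure was tested on simulated counts.

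Genes named are all 10 members, ARID1B, up to 4 genes of smallest p per list, CDH1, VIM and CDH2, RNA genes beside or over the members, and the 3 nearest profiles of the most abundant 2. The neighbours FOXC1, FOXL1, FOXQ1 and MTHFSD and the cell type markers ATOH1, PTPRC, HBB and CDH5 were named after their values were seen. Profiles used log2 CPM with a prior count of 2, for genes with a mean of at least 3. The members and lists were chosen with earlier results of these data known. Of 224 list genes 6 matched no identifier. Some items that these rules select are not reported here. Intervals and floors (3 counts) cover counting error only.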

Additional observations from a re-analysis of the deposited data

How the results depend on the processing

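All 4 member calls were lost without wild-type library 2, those of FOXF2 and TWIST2 also with either trend removed, and that of FOXF2 also without library 3; 1 library stands for the shRNA arm. Beside 763 genes called as measured, DESeq2 called 1775, the fit with no filter 3226, and the fits without the GC and length trend or the GC trend alone 489 and 508, each counted on its own; without single wild-type libraries the count ranged from 157 to 1189. Of calls, 81.4% were higher as measured, 70.1% with the GC and length trend removed, 71.5% with the GC trend removed, 70.5% with no filter, 89.2% without library 2 and 93.9% without library 3. Upper-quartile scaling lowered the median log2 fold change of all genes by 0.12, to -0.17. Members called went from 4 to 2 with either trend removed, and from 0 to 4 without single libraries. With the GC and length trend or the GC trend removed, the log2 fold change was 2.69 and 2.64 for TWIST2 (edgeR adjusted p = 0.0504 and 0.0533), 0.31 and 0.29 for FOXF2 (0.605 and 0.634) and -0.19 and -0.23 for TWIST1 (0.644 and 0.581). SNAI2 passed with no filter, at -0.68 (0.0355; 0.0355 to 0.451 over its 12 alternatives). Without single libraries the log2 fold change ranged from 2.70 to 3.51 for TWIST2, 3.35 to 4.26 for FOXC2, 2.88 to 3.27 for FOXF1, 1.64 to 1.69 for FOXF2 and -0.20 to 0.63 for ZEB2. SNAI1, ZEB1 and PRRX1 kept direction and side of the threshold in all 12 alternatives. TWIST2 has no value at a mean count of at least 50.

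Calls in the lists moved as follows. Family relatives (2): 1 with upper-quartile scaling, limma-voom, a mean count of at least 50 or either trend removed, 5 with DESeq2, 7 with no filter, 0 to 3 without single libraries. E-protein and ID genes (2): 4 with DESeq2, 5 with no filter, 1 with either trend removed, 1 to 2 without single libraries. Corepressors and turnover (4): 2 with either trend removed, 1 to 4 without single libraries. Epithelial genes (2): 9 with no filter, 1 at a mean count of at least 50, 0 to 4 without single libraries. Mesenchymal genes (4): 12 with DESeq2, 13 with no filter, 2 to 7 without single libraries. Inducing signals (4): 8 with no filter, 2 with either trend removed, 1 to 5 without single libraries. RNA genes beside the members (0): 1 with DESeq2 and with no filter, 0 to 1 without single libraries. Except for the trends, fewer libraries and changed filters, the cause was not tested. No paired analysis was possible because 1 library stands for the shRNA arm.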
